A study of Mus musculus with 2 samples.

Results

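The genes described here encode the proteins that join neighbouring epithelial cells, in tight junctions, adherens junctions, desmosomes and gap junctions. They were a list of 34 mouse symbols, made up of 10 claudins, 7 other tight junction genes, 5 genes of the adherens junction, 8 of the desmosome, 3 connexins and Epcam. A probe belonged to the list when its RefSeq accession mapped to one of these symbols. All 34 genes had a probe, among 32235 genes or accessions on the array, and 30 of them were measured, among 12877. To count as measured, a gene needed a probe that the scanner software marked well above background on each array for at least 1 of the RNAs.

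Organoids cultured with RankL were compared with organoids cultured without it, and both were grown from the small intestine of wild-type mice. Recombinant mouse RankL, a cytokine of the TNF family that binds the receptor RANK, was supplied at a concentration between 50 and 200 ng/ml when the medium was renewed on days 2 and 5. EGF, Noggin and R-spondin were in the medium of both cultures. Neither the exact dose, the harvest time, the strain and age of the mice nor the number of cultures pooled is stated in the sources used here. RNA of both cultures was put on 2 dual-colour Agilent arrays, the first with RankL in Cy3 and the other, its dye swap, with RankL in Cy5, so the study holds 1 RNA pair, which allows no test and no p-value.

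Tight junctions seal the space between epithelial cells and set which ions pass through it, and claudins form both the barrier and its pores. Adherens junctions and desmosomes hold cells together through cadherins tied to actin or to keratin filaments, and gap junctions are channels of connexins through which small molecules pass from cell to cell. RANK signals through NF-kB, and RankL is known to induce M cells, which take up antigens from the gut lumen above Peyer's patches.

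Values are log2 ratios of RankL over untreated, and each ± gives the SD between the 2 arrays, which is technical and leaves out any spread between cultures. Its median was 0.164 over the 30 measured members and 0.148 over all measured genes. Intensities are normalized log2 values of 1 probe, so they can be compared between the RNAs but not between genes. A gene was called higher or lower when its mean ratio was 1 or more in size (2-fold) and each array gave 0.5 or more in the same direction. Where the RNAs are said not to overlap, this describes technical readings of 1 RNA pair and adds no evidence to the ratio. For genes past the rule it largely follows from the rule, and genes with small ratios, such as Dsp and Epcam, can show it too. Of all measured genes, 704 were higher (5.47%) and 322 lower (2.5%). Between 38.3% and 43.4% of non-control spots were well above background for each RNA on each array.

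Gjb2, a connexin of epithelial gap junctions, and F11r, which encodes the junctional adhesion molecule JAM-A, were higher with RankL. Cldn2 and Cldn15, claudins that form cation pores in the tight junction, were lower. Of the 30 measured members, 2 were higher, 2 lower and 26 neither. That was 6.67% in each direction, against 5.47% higher and 2.5% lower of all measured genes, so the share that was higher was near the background, and the lower share rests on 2 genes. The median of the members was 0.0064, against 0.0086 over all measured genes, and 21 members (70%) lay within 0.5 of 0, against 76.9% of all measured genes.

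**Figure D1:**
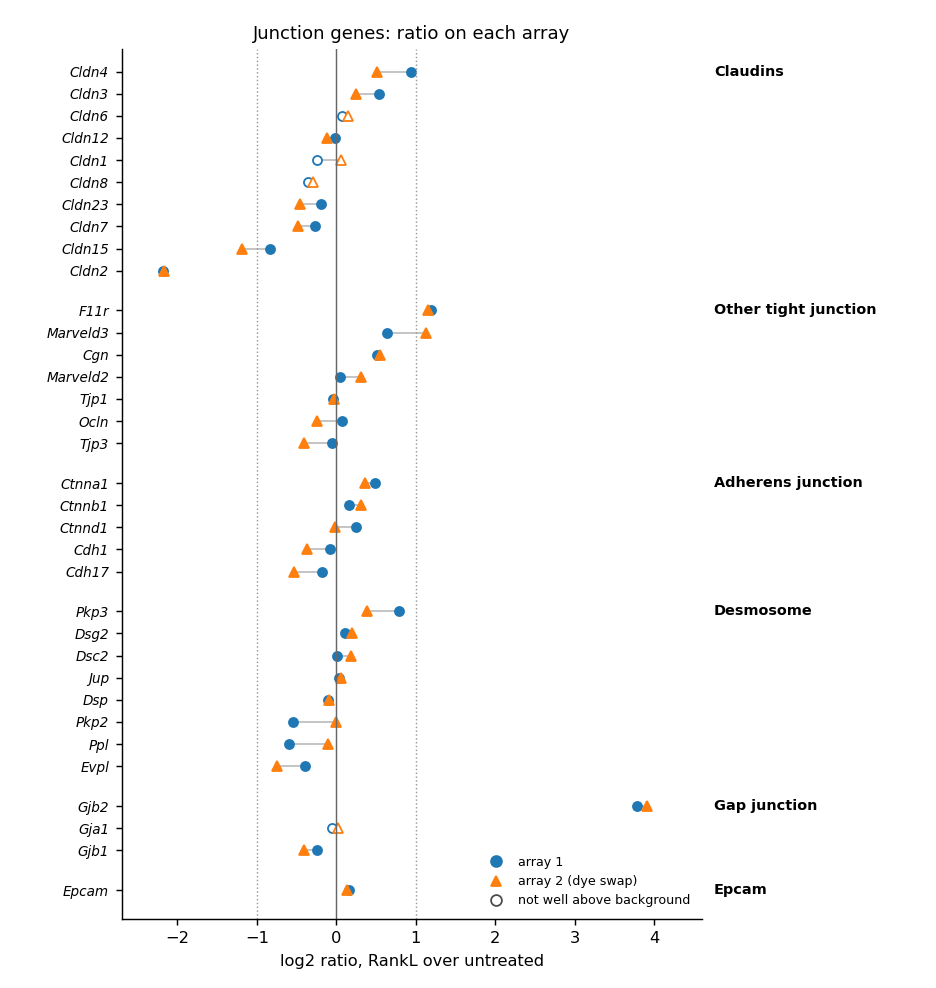
Log2 ratio of RankL over untreated (horizontal axis) for each of the 34 junction genes (vertical axis, by class), with circles for array 1, triangles for array 2 and open symbols for genes not well above background; dotted lines mark a ratio of 1 in size. Gjb2 stands at 3.78 and 3.91 and Cldn2 at -2.17 on each array, while adherens junction and desmosome genes lie between -0.75 and 0.79 on either array.

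Gjb2 read 12.01 and 12.18 in RankL RNA on arrays 1 and 2, against 8.23 and 8.27 in untreated RNA. Both RankL values lay far above both untreated ones. The mean ratio was 3.84 ± 0.09, or 14.3-fold, which held place 35 from the highest among the 12877 measured genes. F11r read 13.81 and 13.50 in RankL RNA and 12.63 and 12.35 in untreated RNA. The RNAs did not overlap, at a ratio of 1.17 ± 0.027 or 2.25-fold. Median centring instead of loess gave F11r 0.91, short of the rule, while the median of all genes moved by -0.067.

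Cldn2 read 7.17 and 7.16 in RankL RNA, against 9.35 and 9.33 in untreated RNA. The RNAs were clearly apart. The ratio of -2.17 ± 0.0036, or 4.51-fold lower, put Cldn2 at place 48 from the lowest of all measured genes. Before normalization its spot gave a median signal of 106 over a background of 26 for RankL RNA, and 733 over 111 for untreated RNA, on array 1. On array 2 it gave 197 over 112 for RankL RNA and 635 over 23.5 for untreated RNA. The scanner software's own ratios gave -2.97.

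Cldn15 read 11.04 and 10.83 in RankL RNA and 11.87 and 12.02 in untreated RNA. These did not overlap either, at -1.01 ± 0.25 or 2.02-fold lower. This was just past the size asked for, and the gene read -0.84 on array 1 alone and -0.98 with the software's ratios.

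**Figure D2:**
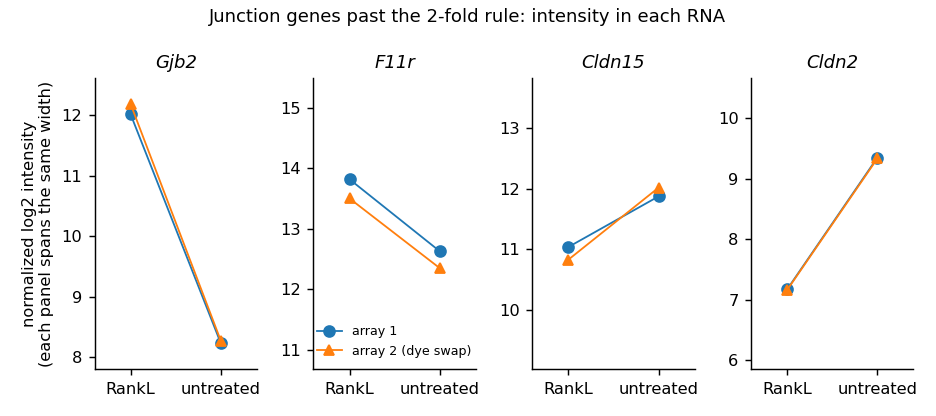
Normalized log2 intensity (vertical axis, each panel spanning the same width) of Gjb2, F11r, Cldn15 and Cldn2 in RankL RNA (left) and untreated RNA (right), with a line for each array. RankL lies above untreated for Gjb2 and F11r and below it for Cldn15 and Cldn2 on both arrays.

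The promoters of these 4 genes are shown because theirs were the junction transcripts past the size rule. They are RefSeq sequences on GRCm38.p6, from 250 bases before to 50 after the start of the gene, at chr14:57104653-57104952 (minus strand), chr1:171437311-171437610 (plus strand), chrX:139800558-139800857 (plus strand) and chr5:136967619-136967918 (plus strand). Capitals mark matches, on either strand, to the NF-kB consensus, to GAGGAA (a core of Ets sites of the Spi type), to CTTTGA (a core of TCF/LEF sites) or to TTTATNG (a core of Cdx sites), and no marked matches overlap.
Gjb2: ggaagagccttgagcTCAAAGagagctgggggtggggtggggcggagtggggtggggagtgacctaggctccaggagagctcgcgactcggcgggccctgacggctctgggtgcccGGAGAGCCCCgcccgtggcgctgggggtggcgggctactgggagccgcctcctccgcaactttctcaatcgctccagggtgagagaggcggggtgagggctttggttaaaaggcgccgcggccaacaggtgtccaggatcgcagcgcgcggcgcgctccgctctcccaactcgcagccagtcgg
F11r: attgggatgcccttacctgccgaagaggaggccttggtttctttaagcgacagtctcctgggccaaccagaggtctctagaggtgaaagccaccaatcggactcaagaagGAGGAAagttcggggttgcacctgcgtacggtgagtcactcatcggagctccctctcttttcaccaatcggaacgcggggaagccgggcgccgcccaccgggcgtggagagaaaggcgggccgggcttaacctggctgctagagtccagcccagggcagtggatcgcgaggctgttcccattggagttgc
Cldn2: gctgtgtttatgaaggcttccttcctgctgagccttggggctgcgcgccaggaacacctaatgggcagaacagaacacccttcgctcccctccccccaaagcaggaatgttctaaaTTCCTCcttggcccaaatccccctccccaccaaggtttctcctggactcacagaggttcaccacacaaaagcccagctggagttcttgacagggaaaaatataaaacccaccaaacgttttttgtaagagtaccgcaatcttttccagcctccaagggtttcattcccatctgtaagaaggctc
Cldn15: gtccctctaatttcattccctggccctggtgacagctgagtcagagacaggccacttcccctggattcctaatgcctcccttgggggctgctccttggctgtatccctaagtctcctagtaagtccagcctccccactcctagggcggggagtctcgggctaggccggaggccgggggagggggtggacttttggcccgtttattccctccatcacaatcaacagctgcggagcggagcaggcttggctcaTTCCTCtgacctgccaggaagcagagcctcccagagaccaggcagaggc
The Gjb2 window held 1 match to the NF-kB consensus and 1 to CTTTGA, both on the reverse strand of the printed sequence. The windows of F11r, Cldn2 and Cldn15 each held 1 match to GAGGAA, on the reverse strand in the claudins and the forward strand in F11r. The GC content of the windows was 70% for Gjb2, 60.3% for F11r, 61% for Cldn15 and 51.3% for Cldn2. Of all 32851 promoters of this length in the table, 8.46% held the NF-kB consensus, 28.3% GAGGAA, 16% CTTTGA and 10.9% TTTATNG. The table matched 22 of the 34 members with 33 promoters, of which 9.09% held the NF-kB consensus, 42.4% GAGGAA, 9.09% CTTTGA and 6.06% TTTATNG. A match describes these letters only.

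Of the 10 claudins 7 were measured, and their median was -0.33. None was higher, 2 were lower and 5 were neither. The lowest ratios after those of Cldn2 and Cldn15 were those of Cldn7, a claudin that binds Epcam, at -0.37 ± 0.15, and Cldn23 at -0.33 ± 0.19. With the software's ratios Cldn7 was at -0.24 and Cldn23, which was dim, at -0.74. Cldn12, which takes part in the passage of calcium between cells, was at -0.067 ± 0.078. Cldn4, a claudin of tight barriers, read 7.68 and 7.56 in RankL RNA and 6.75 and 7.05 in untreated RNA. Its RNAs did not overlap, at 0.72 ± 0.30, short of the rule, and the software's ratios gave 1.31. Cldn3, a sealing claudin, read 13.85 and 13.77 in RankL RNA and 13.31 and 13.52 in untreated RNA, at 0.39 ± 0.21, or 0.10 with median centring. Cldn1, Cldn6 and Cldn8 were not well above background in either RNA.

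The other 7 tight junction genes were all measured, and 1 was higher and 6 neither, with a median of 0.18. Marveld3, Marveld2 and Ocln encode the MARVEL proteins, which span the membrane within the tight junction, and none of them met the rule. Marveld3 read 8.28 and 8.61 in RankL RNA and 7.64 and 7.48 in untreated RNA, at 0.89 ± 0.34. The RankL values lay above the untreated ones, and the gene's other measured probe was at 0.36. Marveld2, or tricellulin, which sits at the corners where cells meet, was at 0.18 ± 0.18, and occludin (Ocln) at -0.089 ± 0.22. Cingulin (Cgn), which ties the junction to actin and myosin, was at 0.53 ± 0.024, and at 0.89 with the software's ratios. Tjp1 and Tjp3, scaffold proteins beneath the membrane, were at -0.034 ± 0.0062 and -0.23 ± 0.25. Under a smaller rule, 0.5 the same way on each array, Cldn4, Marveld3 and Cgn joined Gjb2 and F11r. Then 5 of 30 members were higher and 2 lower, beside 10.2% higher and 6.63% lower of all measured genes.

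The 5 adherens junction genes were all measured and all lay within 0.5 of 0, with a median of 0.11. E-cadherin (Cdh1), the main cadherin of epithelia, read 11.34 and 11.26 in RankL RNA and 11.41 and 11.63 in untreated RNA, at -0.23 ± 0.21. The difference was near 0 on array 1 and larger on array 2. Cdh17, the liver-intestine cadherin, was at -0.36 ± 0.25. Of the catenins, which link cadherins to actin or hold them at the surface, Ctnna1 was at 0.42 ± 0.09, Ctnnb1 at 0.23 ± 0.11 with its other probe at 0.068, and Ctnnd1 at 0.11 ± 0.18. Epcam, an epithelial adhesion protein that binds claudins, read 11.59 and 11.52 in RankL RNA and 11.42 and 11.39 in untreated RNA, at 0.15 ± 0.018.

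None of the 8 desmosome genes, all measured, met the rule, and their median was -0.025. Dsg2 and Dsc2, the desmosomal cadherins of intestinal epithelium, were at 0.15 ± 0.064 and 0.096 ± 0.13. Desmoplakin (Dsp), which anchors keratin filaments, read 9.91 and 9.90 in RankL RNA and 10.01 and 9.99 in untreated RNA, at -0.096 ± 0.0065. These values lay close together, and its other measured probes were at -0.19 and 0.014. Plakoglobin (Jup), an armadillo protein shared with adherens junctions, was at 0.047 ± 0.013. The plakophilins Pkp3 and Pkp2, armadillo proteins of the desmosomal plaque, were at 0.59 ± 0.28 and -0.28 ± 0.38, and Pkp2 read -0.54 on array 1 but -0.0083 on array 2. Evpl and Ppl, plakins best known from squamous epithelium, were at -0.58 ± 0.25 and -0.36 ± 0.35. With the software's ratios they were at -0.63 and -0.99. Ppl was dim, with a signal of 66 over a background of 22.5 for RankL RNA on array 1.

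The gap junction genes spanned from -0.32 to 3.84, over 2 measured genes of 3. The other Gjb2 probe, which in untreated RNA did not stand well above background, read 6.88 and 6.97 in RankL RNA, against 6.25 and 6.16 in untreated RNA. Its ratio is thus only a lower bound, at least 1.64-fold higher with RankL, and the software's ratios gave 3.01 for it on the log2 scale. The mean over both probes, 2.28, takes in this bound and is itself a low limit. Gjb1, the main connexin of hepatocytes, read 6.46 and 6.58 in RankL RNA, where it was well above background on 1 of 2 arrays, and 6.71 and 6.98 in untreated RNA. Its ratio was -0.32 ± 0.11, against -1.59 with the software's ratios, and it counted as measured only through the untreated RNA. Gja1, the most widespread connexin, was not well above background in either RNA.

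**Figure D3:**
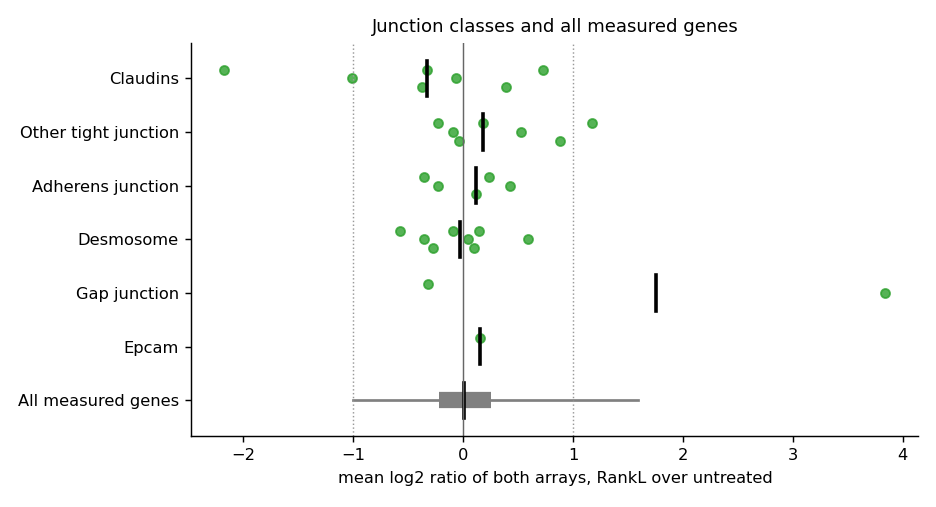
Mean log2 ratio of RankL over untreated (horizontal axis) for each measured member (points) by junction class (vertical axis), with the class median as a black bar. The bottom row gives all 12877 measured genes, with the box from the 25th to the 75th percentile and the line from the 2.5th to the 97.5th, and Cldn2, Cldn15 and Gjb2 lie outside that line.

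With 1 RNA pair the classes could not be tested against each other. The median size of the ratio, without its sign, was 0.39 over 7 claudins, 0.23 over the 7 other tight junction genes, 0.23 over 5 adherens junction genes and 0.21 over 8 desmosome genes, against 0.23 over all measured genes. In bulk RNA, fewer cells of a type and less RNA per cell cannot be told apart.

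Markers of cell types were read on the same arrays. All 6 M cell markers were higher, and their summed signal was 60377 and 62766 in RankL RNA on the 2 arrays, against 2551 and 1975 in untreated RNA. Of the stem cell markers, Lgr5 was at -2.30 and Ascl2 at 0.072, and Olfm4 had no matched probe. The summed signal of Lgr5 and Ascl2, the larger part of it from Lgr5, was 466 and 533 in RankL RNA and 1688 and 1883 in untreated RNA. Of 5 enterocyte markers 2 were higher and 1 lower, of 3 Paneth cell markers 2 higher and 1 lower, and of 3 goblet cell markers 1 lower. The part of these cell types in the junction ratios was not tested. The 5 markers of intestinal epithelium were all measured and none met the rule (-0.29 to 0.81), nor did the 1 enteroendocrine, 2 tuft cell and 2 squamous markers that were measured. The tuft cell markers Dclk1 and Trpm5 were at 0.77 and 0.89, and the squamous marker Krt14 was at 0.95. These 3 were short of the rule but past the smaller one. The squamous marker Krt5 was at -0.081 and the enteroendocrine marker Chga at -0.20. The 4 endothelial markers and the 4 leukocyte markers with a probe were not well above background in either RNA, nor were 3 of 5 fibroblast markers, Col1a1, Col3a1 and Pdgfra, and the other 2, Col1a2 and Vim, did not meet the rule.

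A longer list of 68 other junction genes was read the same way. Of these 65 had a probe and 38 were measured, and their median was 0.13. Of the 38, 7 were higher, 2 were lower and 29 were neither. That was 18.4% higher and 5.26% lower, beside 5.47% and 2.5% of all measured genes. The list was chosen with earlier results of these data known, so its shares only describe it and are not read as an excess. Cldn13 and Ildr1 stood well above background in the RankL RNA alone, where they read higher, and were kept through it. Cldn13 is among the 7 counted as higher.

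Of the tight junction scaffold and polarity genes, 17 of 20 were measured, 2 were higher and 15 neither. Mylk, the myosin light chain kinase that drives contraction of the actin and myosin ring beneath the junctions, read 13.36 and 13.12 in RankL RNA and 9.36 and 9.50 in untreated RNA. The RNAs were far apart, at 3.80 ± 0.26 or 14.0-fold, place 36 from the highest of all measured genes and next to Gjb2, and its other probe was at 3.77. Lsr, an angulin that brings tricellulin to the corners between cells, read 15.74 and 15.66 in RankL RNA and 14.66 and 14.60 in untreated RNA, at 1.07 ± 0.017, but at 0.70 with median centring. The lowest of the group was Ybx3, a nucleic acid-binding protein found with the tight junction scaffold, at -0.59 ± 0.0015.

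Nectins, immunoglobulin-type adhesion proteins of the adherens junction, were called in both directions or not at all. Nectin1 read 10.94 and 10.89 in RankL RNA and 9.23 and 9.20 in untreated RNA, at 1.70 ± 0.01. Nectin2 read 11.70 and 11.72 in RankL RNA and 10.55 and 10.38 in untreated RNA, at 1.24 ± 0.14, with its other probe at 0.41. Nectin3 read 9.83 and 10.06 in RankL RNA and 11.37 and 10.97 in untreated RNA, at -1.23 ± 0.45, and its other probes were at -0.94 and -0.78. The RNAs did not overlap for Nectin1, Nectin2 or Nectin3. Nectin4, the other nectin measured, was at 0.096 ± 0.11 and did not meet the rule. It was well above background on 1 of 2 arrays in untreated RNA and counted as measured only through the RankL RNA. Of 8 measured nectin, cadherin and linker genes 2 were higher, 1 lower and 5 neither.

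Among the other desmosome and keratin genes, 1 of 8 measured was higher, 1 lower and 6 neither. Krt20, a keratin of differentiated intestinal cells, read 14.47 and 14.56 in RankL RNA and 12.28 and 11.95 in untreated RNA, at 2.40 ± 0.30. Pkp1, a plakophilin best known from stratified epithelium, read 8.90 and 8.94 in RankL RNA and 10.17 and 9.86 in untreated RNA, at -1.10 ± 0.25. The RNAs did not overlap for Krt20 or Pkp1.

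Of 11 other connexin and pannexin genes 2 were measured, 1 was higher and 1 neither. Gja4, a connexin best known from endothelium, read 9.12 and 9.15 in RankL RNA and 6.78 and 6.62 in untreated RNA, at 2.43 ± 0.13 or 5.4-fold. These values lay clearly apart. The untreated signal of Gja4 was dim, at 162 over a background of 109 on array 1 and 71 over 22 on array 2. With the software's ratios Gja4 was at 3.80. The endothelial markers Pecam1, Cdh5, Kdr and Tie1 were not well above background in either RNA, and the cell source of Gja4 was not tested. Panx1, a channel protein of the pannexin family, read 12.44 and 12.28 in RankL RNA and 11.37 and 11.38 in untreated RNA, at 0.98 ± 0.12, just short of the rule. Of 11 other claudins with a probe 3 were measured, and 1 was higher. Cldn13, a claudin of rodents, read 8.12 and 8.02 in RankL RNA and 6.30 and 6.26 in untreated RNA, where it was not well above background, and was at least 3.46-fold higher. Cldn9 was the lowest, at 0.041 ± 0.0039.

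**Figure D4:**
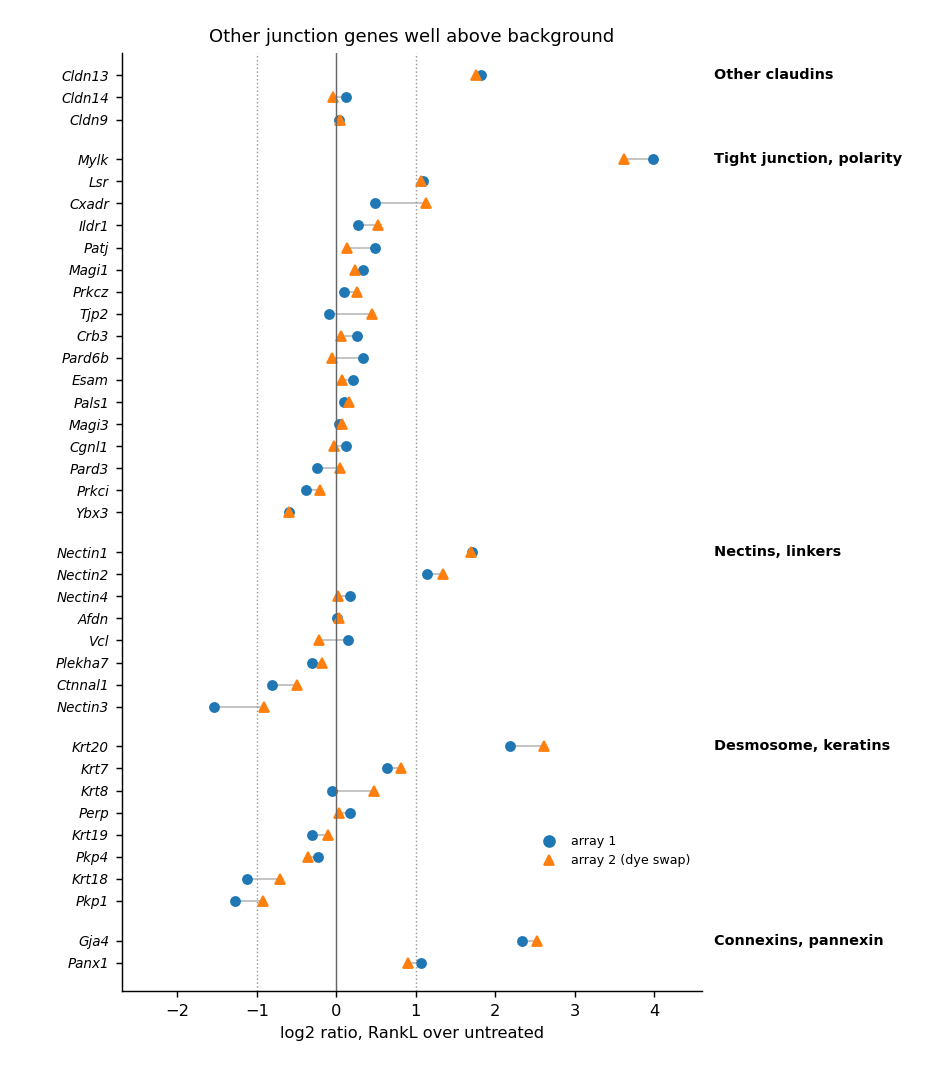
Log2 ratio of RankL over untreated (horizontal axis) for the 38 measured genes of the longer junction list (vertical axis, by group), with circles for array 1 and triangles for array 2; dotted lines mark a ratio of 1 in size. Mylk, at 3.99 and 3.62, lies farthest to the right, and Nectin3, at -1.54 and -0.91, has the lowest mean.

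Median centring and the software's ratios each moved 13 measured members by more than the SD of the arrays. An offset of 16 moved 6, and averaging the probes of a gene moved 1, Gjb2. Cldn2 ranged from -2.97 to -2.17 over all settings and was past the rule throughout. Gjb2 ranged from 2.28 to 4.03 and was also past it throughout, with the low end taken from the mean with the dim probe, which gives only a lower bound. F11r ranged from 0.91 to 1.19, Cldn15 from -1.19 to -0.84 and Gjb1 from -1.59 to -0.24. Ctnnd1, Epcam, Jup and Ocln, none larger than 0.15 in size, changed sign in some setting, and the other 26 measured members did not.

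**Figure D5:**
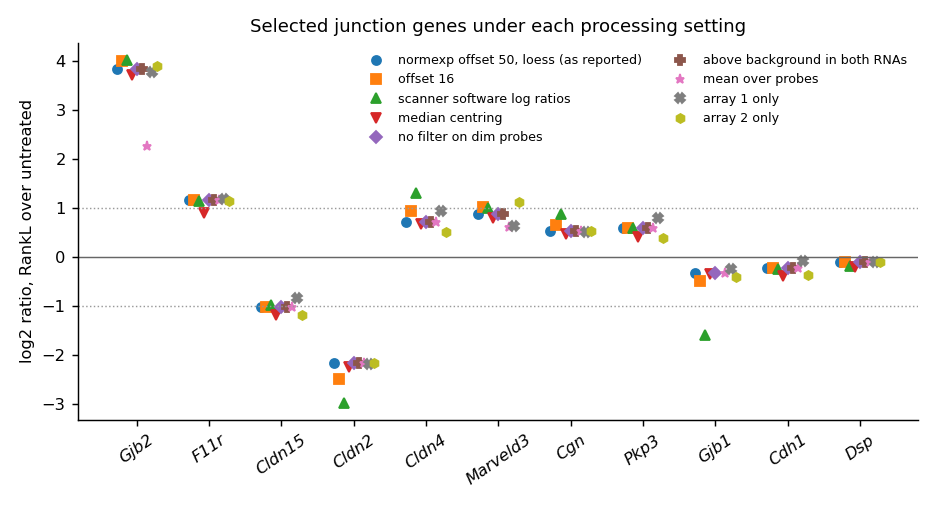
Log2 ratio of RankL over untreated (vertical axis) for 11 junction genes (horizontal axis) under each processing setting (symbols); dotted lines mark a ratio of 1 in size. Gjb2, F11r, Cldn15 and Cldn2 keep their sign under every setting shown, Gjb2 is at 2.28 when its brighter probe is averaged with the dim one, which gives only a lower bound, and Gjb1 is at -1.59 with the software's ratios.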

How the data were processed

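The 34 members, the longer list and the markers were chosen with earlier results of these data known. Spot intensities, deposited by the authors as scanner output, were read per channel (median signal and median background), with the flags for spots well above background or outlying. The files' headers name Agilent Feature Extraction 10.5.1.1 and an array design on mm9, whereas the submitters' processing notes name 8.5.1.1. The log10 ratios in the scanner files and in the authors' deposited value table differed by at most 4.995e-06 once array 1 was turned to RankL over untreated, with medians of 0.

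Of 45018 spots per array, 1639 were controls. Background was corrected with normexp (offset 50), and red was set against green by loess within each array, controls at weight 0 (limma 3.58.1, R 4.3.3). Outlying spots (170 and 164) were left out, none was saturated, and spots of a probe were averaged, giving 41174 probes, 16458 of them measured. Accessions named 26918 probes through RefSeq's GRCm38.p6 table, and Pals1 matched as Mpp5. A gene took its brightest measured probe. Some genes outside the 34 are not reported here. All members are named, with each gene of the longer list past the rule or at the ends of its group. A bound sets the bright RNA against the higher, on each array, of the dim probe's own signal and the lowest signal among probes well above background, and is open to dye bias where the swap does not cancel it. Both arrays hold the same RNA pair, so they count as 1 replicate and precision is limited by that number. Normalization was tested on simulated data. Alternatives were an offset of 16, the software's ratios, the value table, median centring, other filters on dim probes, the mean over probes, each array alone and a smaller fold.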

Additional observations from a re-analysis of the deposited data

How the results depend on the processing

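Each ratio sets the RNAs against each other on the same array. With 1 RNA pair, and no replicate numbers in the labels, no test over replicate pairs was possible. The direction of Gjb2, F11r, Cldn2 and Cldn15 held in every setting tried. With the software's ratios, and equally with the deposited value table, the medians were -0.11 for adherens junction genes, 1.22 for gap junction genes, 0.032 for Epcam and -0.060 for all members. Then 4 members were higher (Cldn4, F11r, Marveld3 and Gjb2), beside 1148 higher and 781 lower of all measured genes, and Gjb1 replaced Cldn15 among the 2 lower. Median centring gave medians of -0.11 for desmosome genes, 1.69 for gap junction genes, -0.017 for Epcam and -0.037 for all members, with 1 member higher, as F11r no longer met the rule, beside 610 higher and 389 lower of all measured genes. Without a filter on dim probes the medians were -0.022 for gap junction genes and -0.028 for all members, and with signal required in both RNAs they were 3.84 and 0.047. The first setting adds Cldn1, Cldn6, Cldn8 and Gja1, and the other leaves out Gjb1. Averaging probes gave 0.98 for gap junction genes, which takes in the dim Gjb2 probe, a lower bound. Array 1 alone left 1 member lower, without Cldn15, beside 330 of all measured genes. Array 2 alone gave a median of -0.012 for adherens junction genes, and Marveld3 made 3 members higher, beside 731 of all measured genes. An offset of 16 also made 3 members higher with Marveld3, beside 885. The smaller fold gave 5 members higher, with 1316 higher and 854 lower of all measured genes. Apart from what the settings themselves add or leave out, the cause of these shifts was not tested. Signal near background limits Gjb1, Cldn2, the dim Gjb2 probe and the 4 members without a measured probe. It also limits other dim members, among them Cldn4, Cldn23, Ctnnd1, Tjp1 and Ppl. Of these, Ctnnd1 was at 0.11 but at -0.11 with the software's ratios.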

Other observations

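Some connexin and claudin genes are neighbours in the order of coding genes of the RefSeq table, and they are described here after their values were seen. Gjb2 lies on chromosome 14 between Gja3 and Gjb6, which were not well above background in either RNA, whereas Gjb2 itself was at 3.84. Cldn4 and Cldn3 are adjacent on chromosome 5, with Cldn13 beyond 1 other coding gene, at 0.72, 0.39 and 1.79. The type II keratin gene Krt8 and its type I partner Krt18, adjacent on chromosome 15, were at 0.21 and -0.92, neither past the rule. With median centring they were at -0.21 and -1.29, so Krt8 changed sign, and with the software's ratios at 0.23 and -0.79. Krt8 read -0.051 on array 1 and 0.47 on array 2.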
